A study of Macaca fascicularis with 28 samples.

Results

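The difference between macaque taste buds and the epithelium beside them was compared between the circumvallate (CV) papilla at the back of the tongue and the fungiform (FG) papillae at the front, within animals that gave every tissue. Members were the 16 of 28 samples from animals 1, 3, 4 and 5, each of which gave whole CV taste buds, lingual epithelium (LE) adjacent to the CV papilla, whole FG taste buds and LE adjacent to FG papillae. For each animal and probe set the interaction was the CV taste bud minus its LE, less the FG taste bud minus its LE, on the log2 scale. It is positive where the step from epithelium to taste bud is more upward in CV than in FG, and it can arise from unlike taste buds, from unlike epithelia or from both. The question was which genes had such an interaction and which of the tissues carried it.

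All groups came from the same 4 cynomolgus macaques (Macaca fascicularis), a female of 4.0 years (animal 1), males of 3.8 and 2.6 years (animals 3 and 4) and a female of 3.0 years (animal 5). Tissue was cut from frozen sections by laser capture, cells of many sections were pooled to 1 sample per tissue and animal, and the RNA, amplified with a NuGEN Ovation kit, was hybridized to the Affymetrix Rhesus Macaque Genome array. Values are intensities in arbitrary linear units, normalized with GC-RMA by the authors. The animal is the replicate (n = 4 per tissue), and with captured pieces of tissue, fewer cells of a type and less RNA per cell cannot be told apart.

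A taste bud is a cluster of elongated cells set in stratified squamous epithelium. Type II cells carry the G protein-coupled receptors for sweet, bitter and umami compounds, type III cells take up and store serotonin and form synapses with nerve fibers, and type I cells wrap the others in a glia-like manner. CV taste buds lie in the wall of a deep trench into which minor salivary glands drain and are served by the glossopharyngeal nerve, whereas FG taste buds lie under the surface of the anterior tongue and are served by the chorda tympani.

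The tissue labels were checked against marker genes. The summed intensity of 8 type II cell genes was 13871 to 19564 units in CV and 15761 to 18544 in FG taste buds but only 188.5 to 235.2 and 176.9 to 284.7 units in the LE beside them. The sum of 30 genes of keratinocyte differentiation ran the other way, from 154691 to 183597 units in LE adjacent to CV and 153857 to 182160 in LE adjacent to FG, against 15629 to 20760 in CV and 11186 to 29908 in FG taste buds. Markers of other cell types moved with the tissues too. The 13 leukocyte markers summed to 298 to 1272 units in CV and 1104 to 3421 in FG taste buds, and to 3200 to 4200 and 1680 to 3599 units in their LE. The 16 salivary gland markers summed to 4663 to 7109 units in CV taste buds, above the range in each of the other tissues (717.2 to 3439 together). The 8 muscle markers reached 9576 units in the LE adjacent to FG of animal 3, against 145.7 to 741.8 units in the other LE samples and 2725 in the FG taste buds of that animal, so counts are also given without that library.

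Of 52024 probe sets, 25040 reached 25 units in at least 4 of the 16 samples and were tested with limma. The fit held the animal as a block, and adjusted p-values are those of Benjamini and Hochberg over this whole set. The interaction passed an adjusted p of 0.05 at 149 probe sets (0.595% of those tested). It was positive at 36 (0.144%), such as SPOCK1, BMPR1B and ERBB4, and negative at 113 (0.451%), such as CLDN10, PLAC8 and CCL2. Each of the 149 had the same sign in 4 of 4 animals, and 144 changed by at least 5-fold. An unadjusted p under 0.05 was found at 3758 probe sets. With the 4 per-animal interactions tested alone, without the spread from the separate tissues, limma called 0 in either direction, and the adjusted p of the named genes called here was 0.136 to 0.151. The median interaction over all tested probe sets was -0.10, with 11472 positive and 13568 negative.

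The number of calls fell most when animal 3, 4 or 5 was left out. Every fit without an animal also has fewer samples, so lost precision and reliance on that animal cannot be told apart. Of the 149, 77 were also called without animal 1. Without animal 3 the positive and negative interactions numbered 0 and 2, without animal 4 they numbered 0 and 1, without animal 5 they numbered 5 and 8, and without animal 1 they numbered 24 and 178. Without the single LE library with the high muscle markers they numbered 14 and 48, and CLDN10, PLAC8, CCL2, CD83, UNC5CL, IRX3, CHRNA10, SPX, ESRRG, DDC, SAMD5 and BMPR1B were the named genes that kept the call. Each of the 149 that was tested kept its sign in every one of these fits. With an animal left out this was fixed in advance, because every animal alone had that sign. The split by direction also moved with scaling, and over the tested probe sets the array medians were 5.84 to 6.11 log2 in LE adjacent to FG, against 5.94 to 6.6 in the other tissues. Centring every array on its own median shifted all interactions by 0.30 log2 and left 37 positive and 50 negative, so that 42.5% of the calls were positive instead of 24.2%. Centring ended the calls of MEGF10, TPH1, IL1A, EFNB3 and HTR3E (adjusted p = 0.0526 to 0.0684). Leaving out the animal block ended those of MEGF10, HTR3E, TPH1, SPX, CD83 and C16orf54 (adjusted p = 0.0503 to 0.0714). With all 20 samples of whole tissue, CD53, SLA, NR2F1 and IRX3 were not called (adjusted p = 0.0746, 0.0909, 0.0565 and 0.126), and the interaction of IRX3 was 3.37.

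Levels under 25 units are near background, and the size of an interaction depends on them. With such values raised to 25, the interaction was 5.61 for SPOCK1, 4.27 for SAMD5, 4.14 for DDC, 3.93 for ESRRG, 3.59 for ERBB4, 3.51 for IRX3, 3.48 for NR2F1 and 3.42 for BMPR1B. In the negative direction it was -5.58 for CLDN10, -5.46 for PCK1, -4.60 for CD53, -4.00 for C16orf54, -3.64 for TPH1, -3.29 for MEGF10 and -2.25 for EFNB3. These 15 genes were still called, with smaller changes than without the floor. HTR3E, SLA, TAS2R13, TAS2R43 and SPX were not.

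The taste buds and the epithelia contributed unequally. The bud difference is CV minus FG taste buds, the epithelium difference is LE adjacent to CV minus LE adjacent to FG, and the interaction is the first less the second. The sum of both differences is uncorrelated with the interaction in this balanced design. Where the sum passed an adjusted p of 0.05 with the sign of the interaction, the bud difference was the larger in size and the interaction was counted as carried by the bud; with the opposite sign it was counted as carried by the epithelium, and otherwise as not resolved. Of the 36 positive interactions, 14 were carried by the bud, 0 by the epithelium and 22 were not resolved. At an unadjusted p under 0.05 of the sum, 28 fell to the bud and 2 to the epithelium. The 113 negative interactions divided into 12 carried by the bud, 13 by the epithelium and 88 not resolved. Of these 113, the unadjusted p of the sum placed 30 with the bud and 33 with the epithelium. The bud difference made up a median of 87.8% of the positive interactions (quartiles 70.8% and 96.0%) and 44.2% of the negative ones (24.8% and 71.4%). For comparison, the bud difference passed the test at 190 probe sets (0.759%) and the epithelium difference at 306 (1.22%).

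**Figure D1:**
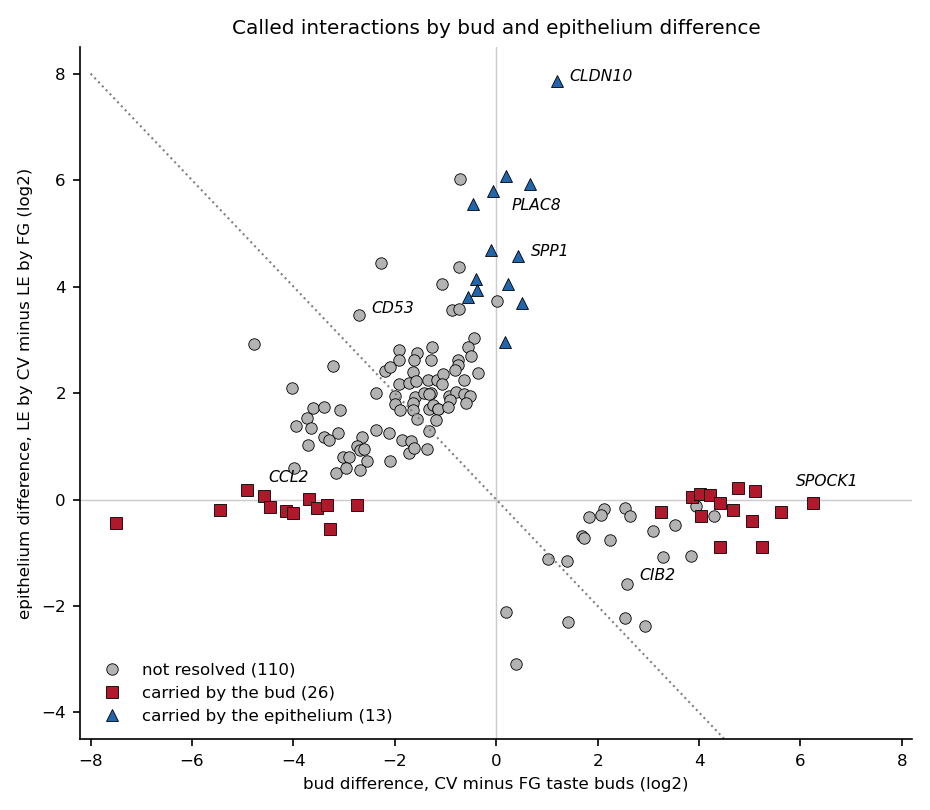
Bud difference (CV minus FG taste buds, log2, horizontal) against epithelium difference (LE adjacent to CV minus LE adjacent to FG, log2, vertical) for the 149 probe sets with a called interaction, colored by the tissue that carried it; on the dotted line the bud and the epithelium contribute equally. Bud-carried calls (26) lie along the horizontal axis on both sides, epithelium-carried calls (13) lie along the upper vertical axis, and most of the 110 not resolved lie between them at the upper left.

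Most positive interactions carried by the bud were genes that were bright in CV taste buds and dim in FG taste buds and in both epithelia. The salivary gland markers were also highest in CV taste buds, as given above, and their part in these interactions was not tested. SPOCK1, a secreted proteoglycan of the testican family, had 616, 1101, 1054 and 914 units in the CV taste buds of animals 1, 3, 4 and 5. The FG taste buds of the same animals held 17.8, 8.48, 17.9 and 7.37 units, and the LE samples 14.9 to 54.4 units beside CV and 5.17 to 97.5 beside FG. All 4 CV values thus lay above all 12 others. The interaction was 6.31 ± 1.08 (standard error, adjusted p = 0.033), the bud difference was 6.24 (adjusted p = 0.00328) and the epithelium difference was -0.07 (adjusted p = 0.976).

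Receptors for growth factors were part of this group. BMPR1B, a type I receptor for bone morphogenetic proteins, had 672, 339, 111 and 200 units in CV taste buds, in the order of the animals above, and 3.47 to 8.63 units in every other sample. Its interaction was 5.85 ± 0.59 (adjusted p = 0.00301), with 5.07 to 6.50 in single animals, against 12 values that all lay near background (3.42 with values raised to 25). ERBB4, the receptor tyrosine kinase for neuregulins, had 395, 194, 242 and 501 units in CV taste buds and at most 28 units elsewhere, the highest of them in the FG taste buds of animal 4. The interaction of ERBB4 was 5.45 ± 0.89 (adjusted p = 0.0257) and varied from 2.82 in animal 4 to 8.69 in animal 5. BMPR1B was the 1 called gene among 29 tested members of the TGF-beta and BMP list, and ERBB4 the 1 called gene among 36 tested members of the FGF, EGF and IGF list, whose median interactions were 0.13 and 0.29.

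Transcriptional regulators differed in where the contrast lay. ESRRG, an orphan nuclear receptor of the estrogen-related family, had 459, 464, 524 and 500 units in CV taste buds, and 7.69 to 65.8 units in the 12 other samples. Its interaction of 4.86 ± 0.62 (adjusted p = 0.0118) came with a bud difference of 4.67 (adjusted p = 0.000539) and an epithelium difference of -0.19. IRX3, an Iroquois homeobox factor that patterns embryonic tissues, behaved differently. CV taste buds had 128, 551, 275 and 289 units of it, the LE beside them 140 to 224 and LE beside FG 100 to 299, but FG taste buds had only 13.9, 18.8, 8.1 and 12.8 units. FG taste buds were thus the only tissue apart from the rest, with no overlap. The log2 step from LE to taste bud was 0.66 in CV (adjusted p = 0.298) and -3.81 in FG (adjusted p = 0.000124), and the interaction was 4.47 ± 0.67 (adjusted p = 0.0191). ESRRG and IRX3 were the 2 called genes among 27 tested regional transcription factors, whose median interaction was -0.05.

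CHRNA10, a subunit of the nicotinic acetylcholine receptor best known from hair cells of the inner ear, had 864, 700, 678 and 1012 units in CV taste buds. Every other sample held 20.7 to 73.5 units. The interaction was 4.56 ± 0.53 (adjusted p = 0.00691), and its value in animal 5, 6.42, stood apart from 3.73 to 4.18 in the other animals. SAMD5, a protein with a sterile alpha motif domain, had 794, 550, 551 and 194 units in CV taste buds and 9.73 to 45.5 units elsewhere, with an interaction of 5.30 ± 0.55 (adjusted p = 0.00301). NFIB, OLAH and SLC26A7 were further genes of the bud-carried group, and were singled out after their values were seen. The anion transporter SLC26A7 held 630.3 to 1114 units in CV against 22.12 to 182.4 in FG taste buds, and at most 12.71 in either LE. OLAH, a thioesterase of fatty acid synthesis, held 70.23 to 357.8 units in CV taste buds and at most 10.83 elsewhere. The called probe set of the transcription factor NFIB had an interaction of 6.13 (adjusted p = 0.0143), and 4 of its 4 tested probe sets were positive. This NFIB probe set, too, was dimmer in FG taste buds (7.639 to 46.81 units) than in LE (56.08 to 643.9 units), and it held 456.6 to 870.4 units in CV taste buds.

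**Figure D2:**
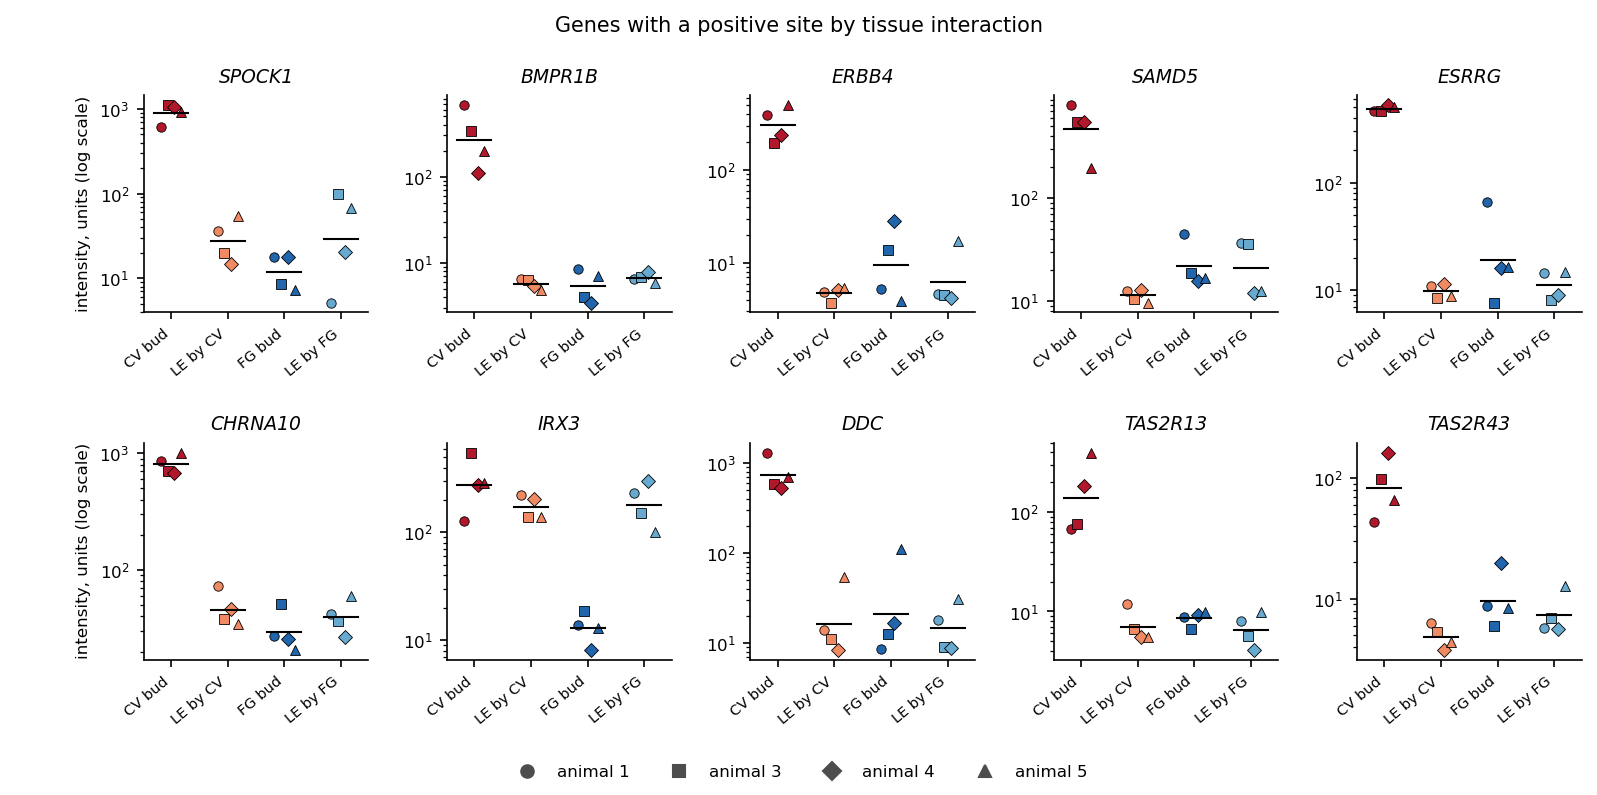
Intensity (units, log scale) of 10 genes with a called positive interaction in the 4 tissues, with 1 point per animal and bars at the geometric mean of the tissue. In 9 of them the 4 CV taste bud values stand above all other samples, while IRX3 is at the level of both epithelia in CV taste buds and lies below them in FG taste buds (8.1 to 18.8 units).

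Taste receptors were examined as a list. The study reported higher levels of TAS1R1 and TAS1R2 in FG taste buds and of most TAS2R genes in CV taste buds. Of 28 receptors, 23 were matched by name to a probe set, which can miss receptors that the array holds under other names. Of those matched, 11 reached the intensity for testing, 9 with a positive and 2 with a negative interaction. TAS2R42, which the paper lists among its top CV taste bud genes, was not among these 11. The median was 0.84, against -0.10 over all probe sets. The called ones were the bitter receptors TAS2R13 and TAS2R43. TAS2R13 had 67.5, 75.1, 182 and 398 units in CV taste buds and 4.09 to 12 units in the 12 other samples. The interaction was 3.91 ± 0.69 (adjusted p = 0.0337) and was carried by the bud. TAS2R43 had 43.1, 99, 162 and 66.1 units in CV taste buds and at most 19.7 elsewhere, and its interaction of 3.68 ± 0.66 (adjusted p = 0.0347) was not resolved, although the bud difference alone passed at 3.09 (adjusted p = 0.0112) and the epithelium difference was -0.59. The array annotation gives the probe set of TAS2R43 another locus name. With all values under 25 units raised to 25, TAS2R13 and TAS2R43 no longer passed (adjusted p = 0.0729 and 0.0846).

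The other 9 tested receptors did not pass. TAS2R14 was bright at both sites, with 3015 to 4221 units in CV and 124 to 1723 in FG taste buds, and had an interaction of 3.09 (adjusted p = 0.153). The umami receptor subunit TAS1R1 ran the other way, with 18.4 to 97.8 units in CV and 308 to 499 in FG taste buds. Its bud difference of -2.76 passed (adjusted p = 0.0252), whereas the interaction of -2.06 ± 0.68 did not (adjusted p = 0.189). The interaction was 2.06 for TAS2R8 (adjusted p = 0.233), 1.01 for TAS2R16 (adjusted p = 0.631), 0.84 for TAS2R4 (adjusted p = 0.497) and 0.76 for TAS2R48 (adjusted p = 0.619). For TAS2R10, TAS2R50 and the sweet receptor subunit TAS1R2 it was 0.45, 0.07 and -0.94 (adjusted p = 0.857, 0.971 and 0.425).

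Genes of monoamine synthesis and signalling moved in both directions, and these calls were carried by the bud. DDC, the decarboxylase that makes serotonin and dopamine from their amino acid precursors, had 1316, 594, 529 and 701 units in CV taste buds and 8.54, 12.6, 16.8 and 111 in FG taste buds. Both LE tissues held 8.37 to 53.8 units. The CV values were separate from all others, and the interaction was 4.96 ± 0.78 (adjusted p = 0.0236), from 1.86 in animal 5 to 7.65 in animal 1. The study names this probe set DDC and the array annotation names it BMP2K. TPH1, the hydroxylase that catalyzes the first step of serotonin synthesis in peripheral tissues, showed the opposite pattern. It had 673, 824, 262 and 309 units in FG taste buds, 8.07, 106, 10.1 and 21.8 in CV taste buds and 6.91 to 27.7 in LE. The interaction of TPH1 was -4.33 ± 0.86 (adjusted p = 0.0488) and the bud difference was -4.46 (adjusted p = 0.00607). CV taste buds of further animals, captured as top and bottom fractions, held up to 687.7 units of TPH1, within the range of these FG taste buds.

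HTR3E, a subunit of the ion channel that serotonin opens, had 296, 49.2, 54.8 and 220 units in FG taste buds and at most 17.7 units in the other 12 samples. The interaction was -3.24 ± 0.60 (adjusted p = 0.0354). Raising values under 25 units to 25 took the adjusted p of HTR3E to 0.13, while DDC and TPH1 remained called. TPH1 lost its call under other settings, with an adjusted p of 0.0646 after centring, 0.0668 without the filter on low values and 0.0571 without the block. The monoamine list had 11 tested members, of which DDC was positive, TPH1 and HTR3E were negative, and 8 did not pass. Of the 11 tested type III cell genes, DDC and TPH1 were again those called, and the summed intensity of the type III list overlapped between both kinds of taste bud (6140 to 7906 units in CV, 6442 to 8091 in FG). Of 8 tested type II cell genes, 0 passed in limma and 2 had an unadjusted p under 0.05, with a median interaction of 0.18. The 4 type I cell genes summed to 525.2 to 1354 units in CV and 55.93 to 206.7 in FG taste buds, without overlap, and to 70.39 to 285.4 in LE. Of these genes, 2 were under 25 units in all 16 samples. SLC1A3, a member, is on the list that the study chose on these samples as higher in CV than in FG taste buds. Of the 2 type I cell genes that were tested 0 were called and 1 had an unadjusted p under 0.05. The part of type I cells in the positive interactions carried by the bud was not tested.

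Among the negative interactions carried by the bud, CCL2 had the largest change of the genes named by rule. CCL2, the chemokine that attracts monocytes, had 831, 1060, 2244 and 2533 units in FG taste buds and 20.5, 24.4, 240 and 127 in CV taste buds. In LE it held 6.43 to 20.9 units. CCL2 was therefore higher in taste buds than in LE at both sites, by 7.09 log2 in FG (adjusted p = 5.96e-06) and 2.45 in CV (adjusted p = 0.0073), and the interaction was -4.64 ± 0.84 (adjusted p = 0.0348). UNC5CL, a protein related to the netrin receptors that signals to NF-kB, had 349, 225, 407 and 643 units in FG taste buds. It had 13.2, 23.1, 61.8 and 16 units in CV taste buds and 5.68 to 9.0 in LE, with an interaction of -3.76 ± 0.63 (adjusted p = 0.0309). The FG values of CCL2 and UNC5CL did not overlap with any other tissue.

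Further genes bright in FG taste buds were noted after the values were seen. SEZ6L, a membrane protein first described in brain, held 252 to 747.4 units in FG taste buds and 5.378 to 12.97 in all other samples at 1 of its probe sets (interaction -5.25, adjusted p = 0.00301). The other tested probe set of SEZ6L was also negative but was not called. The immediate early transcription factor EGR2 held 47.61 to 278.8 units in FG taste buds and at most 16.82 elsewhere, with a second probe set of the opposite sign. The smallest adjusted p of all interactions, 8.03e-05, belonged to a probe set that has no gene name here. It read 883.1, 1725, 557.5 and 765.6 units in FG taste buds and 3.544 to 10.81 units in the other 12 samples, with an interaction of -7.05 ± 0.46, or -5.17 with the values under 25 units raised to 25.

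**Figure D3:**
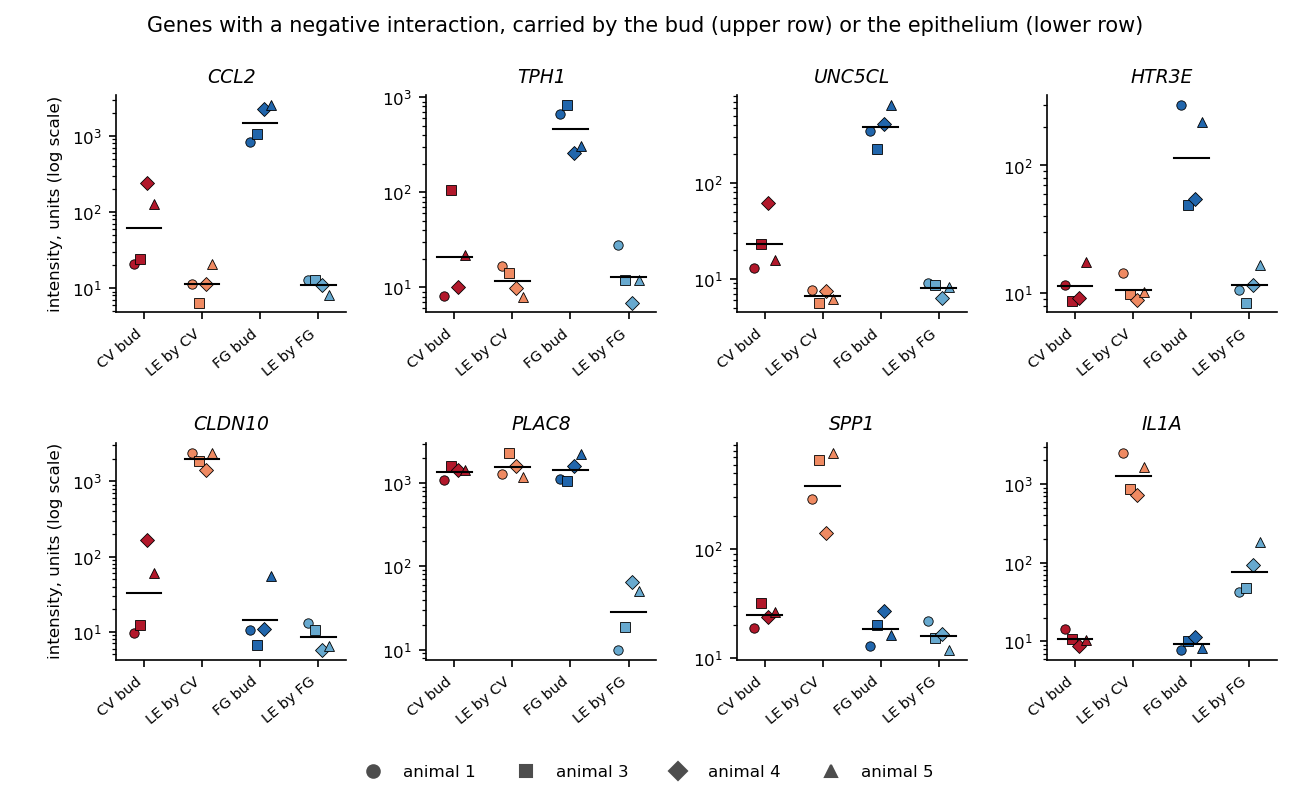
Intensity (units, log scale) of 8 genes with a called negative interaction in the 4 tissues, with 1 point per animal and bars at the geometric mean. CCL2, TPH1, UNC5CL and HTR3E in the upper row are carried by the bud and stand high in FG taste buds, whereas CLDN10, SPP1 and IL1A in the lower row stand high in LE adjacent to CV and PLAC8 stands low in LE adjacent to FG (9.9 to 64.8 units).

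The epithelium carried 13 negative interactions, in which the epithelia beside the taste buds differed by more than the taste buds did. CLDN10, a tight junction claudin that forms paracellular ion channels, had 2355, 1855, 1437 and 2411 units in LE adjacent to CV and 13, 10.6, 5.74 and 6.52 in LE adjacent to FG. In taste buds it had 9.56 to 167 units in CV and 6.67 to 55.0 in FG. The epithelium difference of CLDN10 was 7.86 (adjusted p = 0.00133), its bud difference was 1.20 (adjusted p = 0.667) and its interaction was -6.66 ± 1.13 (adjusted p = 0.0327). LE adjacent to CV lay above all other samples, without overlap.

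PLAC8, a small cysteine-rich protein found in many epithelia and in leukocytes, was the reverse case. It was bright in 3 tissues, with 1079, 1629, 1428 and 1460 units in CV taste buds, 1290, 2334, 1595 and 1201 in the LE beside them and 1134, 1056, 1595 and 2253 in FG taste buds. In LE adjacent to FG it had only 9.9, 18.9, 64.8 and 51.0 units. PLAC8 was therefore higher in FG taste buds than in their LE by 5.68 log2 (adjusted p = 4.25e-06), with a step of -0.16 at the CV site, and the interaction was -5.85 ± 0.64 (adjusted p = 0.00501). A comparison of taste buds alone gave -0.06 (adjusted p = 0.985).

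Secreted factors were among the genes that were brightest in LE adjacent to CV. SPP1, the secreted phosphoprotein osteopontin, had 289, 660, 139 and 772 units there and 11.8 to 31.5 units in the other 12 samples. Its interaction was -4.15 ± 0.68 (adjusted p = 0.0257) and its epithelium difference 4.58 (adjusted p = 0.00163). IL1A, the alpha form of interleukin-1 stored by keratinocytes, was an epithelial gene at both sites. It had 2515, 873, 733 and 1646 units in LE adjacent to CV, 42.0, 48.2, 94.1 and 181 in LE adjacent to FG, and 7.76 to 14.5 in taste buds of either kind. The step from LE to taste bud was -6.88 in CV and -3.05 in FG (adjusted p = 0.0007 for FG), and the interaction was -3.82 ± 0.68 (adjusted p = 0.0342).

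PCK1, the enzyme that commits the cell to gluconeogenesis, had 1682, 1441, 505 and 524 units in LE adjacent to CV and 4.8 to 60.6 in all other samples. The interaction of this probe set was -6.73 ± 1.10 (adjusted p = 0.0257), with an epithelium difference of 6.02 (adjusted p = 0.00539) and a bud difference of -0.71. The sum that decides the carrier missed the threshold (adjusted p = 0.063), so it was not resolved, while the second probe set of PCK1 was carried by the epithelium (interaction -5.26, adjusted p = 0.0143). FBXO32, a ubiquitin ligase subunit best known from wasting muscle, was singled out after its values were seen, since 2 of its 4 tested probe sets were carried by the epithelium. At 1 of them it held 105.6 to 480.6 units in LE adjacent to CV and at most 12.04 elsewhere. The muscle markers summed to 145.7 to 224.3 units in LE adjacent to CV, below the 278.6 to 9576 units in LE adjacent to FG. The part of muscle content in the FBXO32 interactions was not tested.

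Most negative interactions were not resolved. Of the 113, 96 had a bud and an epithelium difference of opposite sign, 0 had both past the threshold and 58 had both at an unadjusted p under 0.05. At 25 of them the steps from LE to taste bud passed the test in opposite directions at the CV and FG sites. CD53, a tetraspanin of leukocytes, had 79.8, 282, 212 and 147 units in LE adjacent to CV and 19.6, 17, 38.3 and 7.82 in CV taste buds. In FG the order was reversed, with 25.4, 74.6, 359 and 268 units in taste buds and 16, 7.49, 9.97 and 39.6 in LE. The FG taste bud of animal 1 fell in the range of the CV taste buds, and the others lay above it. The step from LE to taste bud was -3.19 in CV (adjusted p = 0.00662) and 2.98 in FG (adjusted p = 0.0114), and the interaction was -6.17 ± 1.07 (adjusted p = 0.033). Single animals gave -7.37, -7.64 and -6.99 in animals 3, 4 and 5 but -2.69 in animal 1.

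CD83, a surface protein of mature dendritic cells and activated lymphocytes, crossed in the same way. CV taste buds had 28.2, 28.6, 49 and 48.2 units, and FG taste buds 85.3, 421, 603 and 504 units. The levels were 55.3, 102, 567 and 182 in LE adjacent to CV and 30, 68.7, 69.9 and 127 in LE adjacent to FG. The 2 kinds of taste bud did not overlap, and the epithelia did. The steps were -2.06 in CV (adjusted p = 0.00461) and 2.31 in FG (adjusted p = 0.00309), and the interaction was -4.37 ± 0.65 (adjusted p = 0.0191). SLA, an adaptor that dampens antigen receptor signalling, had 10.9, 7.82, 15.6 and 9.44 units in CV taste buds, below every other tissue. LE adjacent to CV held 121 to 276 units of SLA, FG taste buds 22.6 to 573 and LE adjacent to FG 20.6 to 218, and the interaction was -6.12 ± 1.10 (adjusted p = 0.0348), or an adjusted p of 0.0635 with values under 25 units raised to 25.

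**Figure D4:**
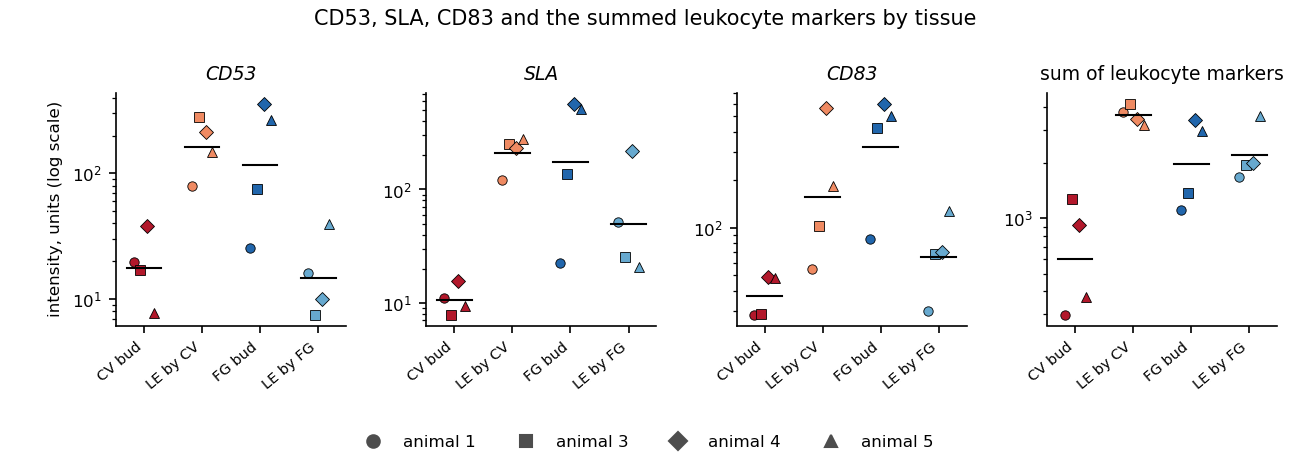
Intensity (units, log scale) of CD53, SLA and CD83 and the summed intensity of 13 leukocyte markers in the 4 tissues, with 1 point per animal and bars at the geometric mean. CD53, CD83 and the marker sum fall from LE to taste bud at the CV site, where the sum is 3200 to 4200 units in LE and 298 to 1272 in CV taste buds.

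The leukocyte markers moved with these genes at the CV site. By animal, their sum was 298, 1272, 923 and 374 units in CV taste buds and 3783, 4200, 3453 and 3200 in the LE beside them, a fall in every animal. It was 1104, 1375, 3421 and 2962 units in FG taste buds and 1680, 1937, 2003 and 3599 in their LE, so that it was lower in FG taste buds in animals 1, 3 and 5 and higher in animal 4, whereas CD53 and CD83 were higher in FG taste buds in all 4 animals. Of the 9 members tested, all 9 had a negative interaction, with a median of -1.77, and CD53 was the 1 that passed at its representing probe set. CD48, also on the list, was called at another probe set, with an interaction of -3.82. TYROBP and AIF1 of myeloid cells had interactions of -4.83 (adjusted p = 0.138) and -3.71 (adjusted p = 0.176), whereas the pan-leukocyte gene PTPRC had -0.10 (adjusted p = 0.97) and the Langerhans cell gene CD207 -0.39. The leukocyte genes SPN, CD69, LILRB1, PRAM1 and CSF1R, which belong to no list and were singled out after their values were seen, were called with interactions of -5.25, -5.01, -4.74, -4.56 and -3.37. The part of differing leukocyte content in these interactions was not tested.

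Cytokine and NF-kB genes tended the same way. Of 33 tested members, 30 had a negative and 3 a positive interaction, with a median of -1.96 against -0.10 over all probe sets. The called ones were CCL2, carried by the bud, IL1A, carried by the epithelium, and CD83, which was not resolved. This list, like the others, was chosen with earlier results of these data known. CCL2, IL1B and UBD are also on the list that the study chose on these samples as higher in FG taste buds. The lean to negative interactions is therefore not independent evidence. IL1B, interleukin-1 beta, had an interaction of -7.89 at the probe set that represents it (adjusted p = 0.0995) and of -5.32 at a second one (adjusted p = 0.0354). At the first, FG taste buds held 871.9 to 6128 units against 8.352 to 480.1 in CV taste buds, and LE held 62.96 to 1085 units beside CV and 6.909 to 470.3 beside FG. UBD, a ubiquitin-like protein induced by cytokines, had a bud difference of -4.62 (adjusted p = 0.00724) and an interaction of -4.24 that missed the threshold (adjusted p = 0.0694). IL23A, a subunit of interleukin-23 singled out after its values were seen, had 25.16 to 54.72 units in LE adjacent to FG and 95.04 to 608.7 in the other tissues, with an interaction of -3.29 (adjusted p = 0.0161).

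For the remaining named genes the carrier was not resolved. HS3ST3A1, a heparan sulfate sulfotransferase, had 390, 294, 484 and 460 units in CV against 11.2, 50.5, 76.4 and 170 in FG taste buds. In LE it had 17.8, 20.6, 17.9 and 8.83 units beside CV and 72.7, 79, 60 and 125 beside FG. Taste buds were higher in CV and epithelium was lower beside CV, in each case without overlap. The interaction was 5.32 ± 0.87 (adjusted p = 0.0257), while the bud difference of 2.94 and the epithelium difference of -2.38 each missed the threshold (adjusted p = 0.0543 and 0.0843). CIB2, a calcium-binding protein of hair cells singled out after its values were seen, had the same form, with 104.4 to 257.3 units in CV and 22.01 to 31.92 in FG taste buds, and 17.14 to 42.17 and 45.12 to 132 units in their LE. In animals 2 and 6, however, the FG taste buds held 59.67 and 94.938 units of CIB2, above the 33.804 and 36.512 units in their LE.

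NR2F1, an orphan nuclear receptor, had 756, 57.5, 255 and 165 units in CV taste buds and 9.13 to 24.5 in FG taste buds. Its interaction was 4.91 ± 0.79 (adjusted p = 0.0247), with 7.85 in animal 1 and 3.55 to 4.21 in the others. SPX, the peptide hormone spexin, had an interaction of 4.78 ± 0.90 (adjusted p = 0.0395), and 0.178 as adjusted p with values under 25 units raised to 25. Its CV and FG taste buds overlapped (25.4 to 183 and 6.52 to 33 units).

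In the negative direction, C16orf54, an uncharacterized membrane protein, had 752, 516, 810 and 836 units in FG taste buds and 34, 8.78, 260 and 154 in CV taste buds. The interaction was -5.33 ± 0.95 (adjusted p = 0.0339). MEGF10, an engulfment receptor of glia, had 215, 74.2, 226 and 521 units in FG and 10.6, 5.54, 22 and 22.9 in CV taste buds. It reached -4.58 ± 0.82 (adjusted p = 0.0348), and a second probe set reached -2.77 (adjusted p = 0.337). EFNB3, a membrane-bound ephrin ligand of axon guidance, had 88.4, 206, 75.5 and 167 units in FG and 20.7, 28.9, 7.15 and 8.23 in CV taste buds. Its interaction was -3.67 ± 0.62 (adjusted p = 0.0309), and it was the 1 called gene of 45 tested axon guidance genes. In C16orf54, MEGF10 and EFNB3 the FG taste buds did not overlap with the CV taste buds of these animals. The CV fractions of further animals, however, held 20.72 to 489.5 units of MEGF10, within the FG range at their upper end, and up to 58.12 units of EFNB3, above the 48.64 units in the FG taste buds of animal 6.

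**Figure D5:**
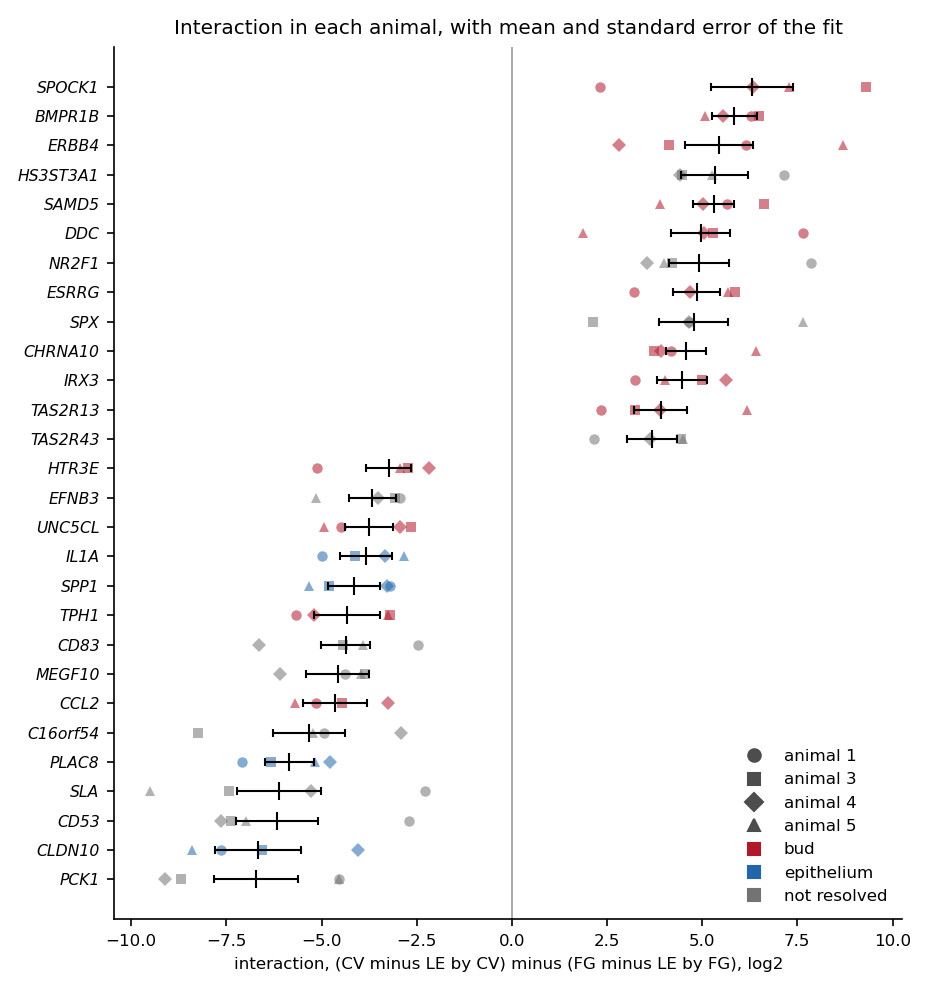
Interaction of the 28 called named genes in each of the 4 animals (log2, horizontal; 1 row per gene), with the mean and standard error of the fit and the color giving the tissue that carried it. Every animal lies on the same side of 0 for each of the 28 genes, and the animals spread most for genes such as SPOCK1 (2.32 to 9.31).

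Of 30 gene lists, 11 held a called member and 19 held none. The study's own list of genes higher in CV than in FG taste buds had 21 tested members, of which 21 were positive and 10 called, 7 of them carried by the bud. Of its list of genes higher in FG taste buds, 24 were tested, 23 were negative and 8 were called, 4 of them carried by the bud. The study chose both lists on these samples, so that the counts are not independent evidence of the directions. In the CV list the median bud difference was 3.43 and the median epithelium difference -0.31, and in the FG list they were -3.18 and -0.14. HOXB3, a homeobox factor of posterior identity on the CV list, had a bud difference of 3.53 (adjusted p = 0.0316) and an interaction of 3.92 that missed the threshold (adjusted p = 0.0865). The 7 tested HOX genes gave 0 calls in limma and 2 unadjusted p-values under 0.05.

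Structural and signalling lists gave few or no calls in limma. Of 30 keratinocyte differentiation genes, 0 were called and 7 had an unadjusted p under 0.05, with 23 negative and a median of -0.40. Of 22 epithelial keratins 0 were called and 3 had an unadjusted p under 0.05, and of 34 Wnt genes 0 were called and 4 had one. The 9 hedgehog genes had 0 of either kind, and of 14 cell cycle genes 0 were called, 2 had an unadjusted p under 0.05 and 11 were positive. The 23 genes of synaptic release and 24 interferon-induced genes gave 0 calls with 3 and 1 unadjusted p-values under 0.05. The 8 salivary gland markers tested had a median bud difference of 2.03 and a median interaction of 0.78, with 0 called and 1 unadjusted p under 0.05.

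The other samples of the series show whether the levels recur. They were FG taste buds and LE adjacent to FG of animals 2 and 6, and CV taste buds captured as separate top and bottom fractions from 4 animals that gave no other sample, hybridized as a separate array set, so that animal and array set cannot be told apart there. For 10 of the 14 positive interactions carried by the bud, all 8 fractions lay above both other FG taste buds. SPOCK1 had 103.7 to 1183 units in the fractions and 5.904 and 11.735 in the FG taste buds, BMPR1B had 52.17 to 376.8 against 3.526 and 5.153, and IRX3 had 130.8 to 484.4 against 10.053 and 21.073. The LE adjacent to FG of animals 2 and 6 had 60.606 and 7.215 units of IRX3, so in animal 6 it was no brighter than the FG taste bud. For ERBB4, fractions ranged from 4.205 to 268.4 units and overlapped with the FG taste buds (5.902 and 6.319). Of the 12 negative ones carried by the bud, all 8 fractions lay below both other FG taste buds for 11. CCL2 had 14.64 to 90.51 units in the fractions against 1291.992 and 1032.662, and HTR3E 6.801 to 12.18 against 538.897 and 301.572. TPH1 was the exception, with 70.13 to 303.3 units in top and 5.353 to 687.7 in bottom fractions against 487.603 and 373.365 in FG taste buds. By the same comparisons, 19 of all 36 positive and 33 of all 113 negative interactions were separated in this way. The share over all tested probe sets was not counted, so these counts have no background beside them.

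For genes carried by the epithelium the only further LE came from beside FG papillae. PLAC8 had 75.095 and 19.649 units there, and 794.7 to 3285 in the CV fractions and the other FG taste buds. The values of CLDN10 in that LE were 11.553 and 6.387 units and those of SPP1 were 17.104 and 15.595, near the range of the LE adjacent to FG of the 4 animals. IL1A had 201.428 and 8.504 units. CD53 had 67.809 and 328.437 units in this LE against 65.435 and 91.696 in the FG taste buds of the same animals, so the rise from LE to FG taste bud was not present in these animals. PRAM1 had 754.164 and 718.357 units in this LE against 69.886 and 114.029 in FG taste buds. CSF1R had 86.999 and 193.898 against 26.868 and 21.037. LILRB1 ran the other way, with 10.5 and 17.593 units against 143.454 and 146.144. SPN and CD69 were higher in the FG taste bud than in LE in animal 2 and lower in animal 6.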

How the data were processed

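The deposited values are intensities on a linear scale, 1 per probe set and sample, made by the authors from all 28 samples together with GC-RMA (background correction and quantile normalization) in GeneSpring. No source used here gives the software versions. Arrays have no read depth, and precision is limited by the 4 animals and by background (37.3% to 40.6% of the probe sets of an array were at 25 units or more).

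Values were log2 transformed, and probe sets that reached 25 units in 4 or more of the 16 samples were fitted with limma 3.58.1 in R 4.3.3, with 4 tissue groups and the animal as a fixed block (9 residual degrees of freedom, moderated spread). P-values are two-sided and adjusted by Benjamini-Hochberg over 25040 probe sets. The fit was tested on simulated data. The pairing comes from the labels' animal numbers. Deviations from group means correlated on average by 0.011 to 0.097 within and -0.032 to -0.004 between animals, depending on the tissues.

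Probe sets were named by the study's list of taste bud genes (1980) and otherwise by a single symbol of the array annotation (24956); 361 with several symbols and 26263 without any were left unnamed. The sources share 755 of 1175 symbols given by both. A gene is represented by the study's probe set, otherwise by its brightest. The named genes were the 7 largest calls per direction carried by the bud and by the epithelium, the 3 largest per direction not resolved, up to 4 called members of each list and every tested taste receptor. Members, lists and tests were chosen with earlier results of these data known. Alternatives covered the per-animal values alone, the block, the samples, the filter, a floor at 25 units, centring, the spread, each animal left out and the methods' t-test, a paired test with at least 5-fold change.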

Additional observations from a re-analysis of the deposited data

Results flagged for a closer look

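Single animals stood apart from the other 3 in the interaction of 3 named genes: CD53 with -2.69 in animal 1, NR2F1 with 7.85 in animal 1 and CHRNA10 with 6.42 in animal 5. The gap to the nearest animal, as a share of the whole range, was 0.868, 0.845 and 0.83, past Dixon's limit for 4 values, which chance passes in some groups. The step from epithelium to taste bud differed between CV and FG at 36 probe sets in the positive and 113 in the negative direction, tested as the interaction itself. For CD53 (interaction -6.17) and CD83 (interaction -4.37) the step fell at the CV site and rose at the FG site, each past the threshold.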

How the results depend on the processing

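Counts are given as positive and negative interactions, then those carried by the bud and by the epithelium, which were 36 and 113, then 26 and 13. Without the animal as a block, so without the pairing, they were 40 and 124, then 30 and 18, and with a random block (correlation 0.0313) 53 and 169, then 34 and 20. With all 20 samples of whole tissue they were 71 and 157, then 35 and 21, and with values raised to 25 units 55 and 178, then 43 and 43. Centring left 37 and 50, then 18 and 10. Leaving out each animal gave 0 to 24 and 1 to 178, then 1 to 18 and 0 to 12. Without the LE adjacent to FG of animal 3, a choice made after its muscle markers were seen, they were 14 and 48, then 16 and 8. The per-animal values alone, with 3625 unadjusted p-values under 0.05, gave 0 and 0, then 0 and 0. The methods' t-test gave 169 and 637 at its own threshold and 0 and 0 after Benjamini-Hochberg adjustment. No filter, a filter at 100 units and a robust trended spread kept each of these counts within 1.5 times the values above. The cause of these changes was not tested. Of the 149 calls, 117 were also made without the block, 82 after centring and 55 without the 1 library. Of the 37 named genes only uncalled taste receptors changed sign: TAS2R50 had -0.31 with all 20 samples, -0.27 with raised values, -0.12 without the LE library and -0.23 to 0.52 as single animals were left out, and TAS2R10 had -0.25 to 1.05 as single animals were left out. Levels under 25 units are near background and have no order.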
